A study of Homo sapiens with 6 samples.

Results

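LINC00894, the long non-coding RNA targeted in these cells, was followed together with 9 protein-coding genes that lie beside it on the long arm of chromosome X. The set of 10 genes was LINC00894, EOLA2, EOLA1, IDS, TMEM185A, MAMLD1, MTM1, MTMR1, CD99L2 and HMGB3. They were chosen by symbol and position, as the targeted gene, the gene that overlaps its start and genes within about 2 Mb, out of 40111 genes with deposited values. All 10 were measured and all 10 passed the filter on low values, which kept 18548 genes with at least 0.5 FPKM (reads scaled by the length of the gene model and the library's assigned reads) in at least 3 of 6 libraries.

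The study profiled polyadenylated RNA by RNA-seq in cells labelled BE(2)-M17, a human line derived from a neuroblastoma. The 3 control libraries carry the genotype label NC, and the 3 other libraries carry the label LINC00894 knockdown, made with a CRISPR-Cas9 vector. The guide sequence, the clonality of the cells, the time after delivery and the control vector were each not given in the sources used here, so no cut site was placed on the sequences. The study's title names the transcription factor ATF3, and the comparison of the 2 groups asks what follows a lower level of LINC00894.

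Long non-coding RNAs often start beside a protein-coding gene and run away from it on the other strand, an arrangement called divergent transcription. Agents directed at the shared start of such a pair can reach either gene, and a non-coding RNA can also act on neighbouring genes in cis, so the genes around a targeted locus are commonly inspected. In this region lie genes known from inherited X-linked disease: IDS encodes the lysosomal enzyme iduronate 2-sulfatase, whose loss causes Hunter syndrome, and MTM1 encodes myotubularin, a lipid phosphatase whose loss causes a congenital muscle disease.

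In GENCODE 29 on GRCh38, LINC00894 runs from 149938628 to 150224580 on the plus strand of chromosome X and is annotated as antisense. EOLA2 runs from 149929527 to 149938811 on the minus strand, so the genes overlap head to head and share 159 exonic bases. In RefSeq the start sites stand at 149938491 for EOLA2 and at 149938548 for LINC00894, with 56 bases between them, and RefSeq names LINC00894 the divergent transcript of EOLA2. EOLA1, a paralog of EOLA2, lies 388.1 kb away towards the centromere (149540355 to 149550510, plus strand) and has a divergent transcript of its own, LINC00893.

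The windows around the start sites of this divergent pair and of EOLA1 are shown because they are what the targeted gene shares with its neighbours. Each holds 250 bases before and 50 bases after a RefSeq start site, in the direction of transcription of the named gene, on GRCh38.p14. In the first and second lines, capitals mark the 156 bases that both windows hold, as reverse complements of each other. In the third line, capitals mark bases that do not match EOLA2 in a pairwise alignment. The EOLA2 window is chrX:149938442-149938741 on the minus strand, the LINC00894 window is chrX:149938298-149938597 on the plus strand, and the EOLA1 window is chrX:149540762-149541061 on the plus strand.
EOLA2: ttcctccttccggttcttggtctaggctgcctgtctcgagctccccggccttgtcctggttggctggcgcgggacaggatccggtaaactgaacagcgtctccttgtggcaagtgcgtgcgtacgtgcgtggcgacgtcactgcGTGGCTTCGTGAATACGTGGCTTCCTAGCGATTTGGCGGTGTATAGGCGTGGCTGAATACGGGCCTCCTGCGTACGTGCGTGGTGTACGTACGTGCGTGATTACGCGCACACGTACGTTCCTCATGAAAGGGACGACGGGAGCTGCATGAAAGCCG
LINC00894: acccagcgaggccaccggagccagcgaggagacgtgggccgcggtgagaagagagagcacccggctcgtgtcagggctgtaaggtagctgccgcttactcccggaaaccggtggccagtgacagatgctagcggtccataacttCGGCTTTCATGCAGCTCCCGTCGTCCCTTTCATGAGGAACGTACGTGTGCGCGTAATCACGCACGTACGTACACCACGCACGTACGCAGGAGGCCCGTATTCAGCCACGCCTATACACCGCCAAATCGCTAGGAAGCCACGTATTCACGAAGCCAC
EOLA1: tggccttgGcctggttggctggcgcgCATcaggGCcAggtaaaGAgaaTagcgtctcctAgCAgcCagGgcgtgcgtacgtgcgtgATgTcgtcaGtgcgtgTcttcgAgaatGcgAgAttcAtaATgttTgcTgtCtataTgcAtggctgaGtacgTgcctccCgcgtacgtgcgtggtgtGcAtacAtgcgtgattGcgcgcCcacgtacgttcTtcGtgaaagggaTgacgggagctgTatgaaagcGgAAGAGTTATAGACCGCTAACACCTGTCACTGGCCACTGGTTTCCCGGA

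The shared stretch of the EOLA2 and LINC00894 windows held 19 CpG dinucleotides. The EOLA2 window held 33, the LINC00894 window 31 and the EOLA1 window 26, against a median of 14 over 35116 RefSeq windows of the same length. Of the 300 bases of the EOLA1 window, 207 were identical to EOLA2, which is 82.1% of the aligned bases. RefSeq lists several start sites for EOLA1, and the window shown is the one most identical to EOLA2. The other EOLA1 windows had 139 and 151 bases identical to EOLA2, and they held 14 and 6 CpG dinucleotides. The binding sequence of ATF and CREB factors, TGACGTCA, was found on neither strand in any window of the genes of the set, and 1.8% of all windows held it. Its first 7 letters, TGACGTC, searched on either strand, occurred in the EOLA2 window and in no other window of the set. That site lay outside the part shared with LINC00894, and 3.4% of all windows held these letters. The shorter TGACG occurred in windows of IDS, EOLA1, EOLA2, MTM1 and HMGB3, and 24.6% of all windows held it. The AP-1 sequence TGAGTCA occurred in none, against 4.9% of all windows. These motifs were chosen after the sequences had been seen, and 9 of the 10 genes had a window.

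Assigned reads ranged from 29276653 to 48089716 in the controls and from 22898079 to 28782977 in the knockdown libraries. Control 1 stood nearer to the knockdown libraries than to the other controls for 60.8% of the genes tested, and for 5 of the 10 genes of the set. The cells matched the neuroblast label only in part. PHOX2A, a transcription factor of sympathetic neuroblasts, was at 0 in all 3 controls and at most 0.0389 FPKM in the knockdown libraries. MYCN, which is amplified in BE(2)-M17 according to what is known of the line, stood between 0.162 and 0.267 FPKM, and the noradrenaline enzyme DBH between 0.143 and 0.366. Other neuroblast markers of the list were expressed, GATA2 between 16.2 and 29.7 FPKM, GATA3 between 4.12 and 5.58, ISL1 between 3.80 and 5.66 and HAND2 between 1.26 and 1.71. The epithelial keratin KRT8 stood between 19.0 and 21.4 FPKM. All 10 neuroblast markers in the table had reads in some library, and their summed level was 26.5 to 37.9 FPKM in controls and 39.9 to 42.7 in knockdowns.

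Markers of red cells moved with the groups. All 5 had reads, and their summed level was 3.51 to 65.8 FPKM in controls and 373 to 850 in knockdown libraries, in the knockdown libraries mostly HBB. The 6 myeloid and lymphoid markers summed to 2.4 to 49.2 FPKM in controls and 17.9 to 35.0 in knockdowns. For both of these lists the highest control sum was that of control 3. The 4 epithelial markers summed to 37.8 to 41.4 in controls and 36.2 to 38.0 in knockdowns. Sums were 5.04 to 7.26 and 5.35 to 5.96 for 5 fibroblast and endothelial markers, and 2.18 to 3.4 and 2.54 to 3.08 for 5 glial ones. The part of these differences in the results that follow was not tested. In bulk RNA, fewer cells of a type and less RNA per cell cannot be told apart.

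In the controls the set spanned much of the range of expressed genes. HMGB3 was highest at 24.1 FPKM ± 0.985 (SD, n = 3), and EOLA2 at 21.8 ± 2.86 did not separate from it. MTMR1 (9.06 ± 1.6), CD99L2 (7.43 ± 0.908) and EOLA1 (5.34 ± 1.22) followed, each overlapping the next. MTM1 at 3.94 ± 0.269 lay below all EOLA1 values and above those of the remaining genes. TMEM185A (2.6 ± 0.0544), MAMLD1 (2.49 ± 0.777), IDS (2.39 ± 0.571) and LINC00894 (2.15 ± 0.131) had control means close together, and each overlapped the next in this order. By mean level over the 6 libraries, LINC00894 stood at percentile 30.9 and HMGB3 at percentile 91.3 of the genes tested. The authors' gene model of LINC00894 has an implied length of 9019 bases against 6323 in GENCODE 29, and its FPKM under the GENCODE model was not computed.

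LINC00894, EOLA2 and IDS fell in the knockdown libraries, and no gene of the set rose. The 3 falls and 0 rises among 10 genes compare with 2.06% of all genes tested that fell, 4.14% that rose and 6.2% that passed in either direction, by limma on log2(FPKM + 0.1) with a Benjamini-Hochberg adjusted p under 0.05. LINC00894 is the gene the knockdown was aimed at, so of the 9 neighbours 2 fell. Over all genes 768 rose and 382 fell, a split that became 338 and 495 with median-of-ratios scaling. Of the 10 genes, 8 had a log2 fold change below 0, against 42.4% of all genes tested. The median was -0.21 in the set and 0.07 over all genes tested. The groups did not overlap, with every knockdown library lower, for 4 of the 10, against 14.3% of all genes tested. Separate cultures are not stated for the libraries within a group, and p-values therefore measure only how far these libraries spread, possibly for technical reasons alone.

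**Figure D1:**
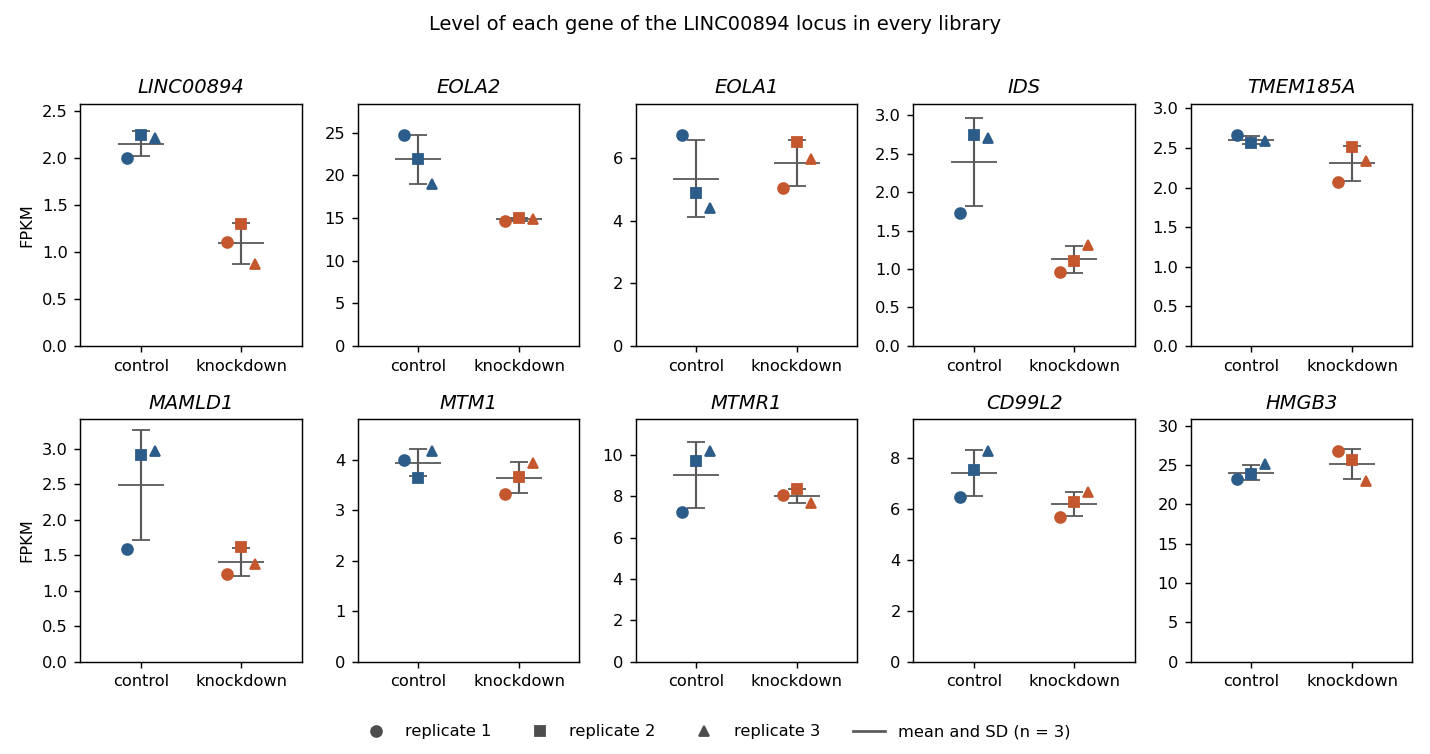
FPKM (linear axis from 0) of the 10 genes in each control library (blue) and knockdown library (orange), with the mean and SD of 3 libraries. LINC00894, EOLA2, IDS and TMEM185A show no overlap between the groups, and control 1 lies apart from controls 2 and 3 for IDS, MAMLD1, MTMR1 and EOLA1.

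LINC00894 was measured at 2.00, 2.24 and 2.21 FPKM in controls 1 to 3 and at 1.10, 1.30 and 0.867 FPKM in knockdowns 1 to 3. Every knockdown library lay below every control, and all 3 controls lay close together. The level was 51.3%, 60.6% and 40.3% of the control mean in the 3 knockdown libraries, so about 50.8% of the RNA remained on average. The reads behind these values numbered 528, 970 and 863 in controls and 228, 333 and 225 in knockdowns. The log2 fold change was -0.93 (SE 0.17, limma adjusted p = 0.0406). Of the 50-base words in its GENCODE transcripts, 22.9% also occur in transcripts of other genes, 18.4% in those of LINC00893. The counting of reads that match several genes is not stated. LINC00894 also shares 159 exonic bases (2.5%) with EOLA2, whose control mean was 21.8 FPKM against 2.15 for LINC00894. The libraries keep no record of strand, so reads of EOLA2 may be counted for LINC00894, and their share was not determined.

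EOLA2 encodes a small protein with an ASCH domain, a fold related to RNA-binding PUA domains, and is the gene that shares its start region with LINC00894, as the capitals in the printed windows show. It was measured at 24.7, 21.9 and 19.0 FPKM in controls and at 14.6, 15.0 and 14.9 FPKM in knockdowns. The knockdown libraries were nearly equal and all lay below the lowest control, at 67.9% of the control mean on average. Its log2 fold change was -0.55 (SE 0.10, limma adjusted p = 0.0402). Unlike IDS and MAMLD1, its level in control 1 was the highest of the 3 controls, 0.27 log2 units above controls 2 and 3. The libraries keep no record of strand, and 50.8% of the EOLA2 50-base words occur in other genes, 44.8% in EOLA1. HSFX4, which had 17 reads over the 6 libraries, and LINC00894 share 23.8% of the EOLA2 exonic bases, HSFX4 437 of them. The counts of EOLA2 therefore carry uncertainty from EOLA1 and from these exonic overlaps.

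EOLA1, the paralog of EOLA2 in the other divergent pair, did not pass the test. Its controls were at 6.72, 4.89 and 4.41 FPKM and its knockdown libraries at 5.05, 6.50 and 5.95 FPKM. Control 1 was the highest library and the other controls the lowest, so the groups overlapped. The log2 fold change was 0.14 (SE 0.18, limma adjusted p = 0.605), and without control 1 it was 0.32 (adjusted p = 0.079).

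The ratio of EOLA2 to EOLA1 compares both paralogs within a library. It carries the uncertainty of their shared sequence, since 44.8% of EOLA2 50-base words occur in EOLA1 and 26.9% of EOLA1 words in EOLA2. On the log2 scale the ratio was 1.86, 2.14 and 2.08 in controls and 1.51, 1.19 and 1.31 in knockdowns. All knockdown values lay below all control values, including control 1. The difference was -0.69, with an exact two-sided permutation p of 0.1, the smallest that 3 against 3 libraries allow, and ranged from -0.78 to -0.61 when any 1 library was left out.

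The ratio of LINC00894 to EOLA2 asks whether the targeted RNA moved further than its divergent partner. Reads of EOLA2 on the 159 shared exonic bases may be counted for LINC00894, so the sides of this ratio are not fully separate. The ratio was -3.56, -3.24 and -3.04 on the log2 scale in controls and -3.61, -3.42 and -3.96 in knockdowns. The groups overlapped, because control 1 lay below knockdown 2. The difference of -0.39 had an exact two-sided permutation p of 0.2, so a larger fall of LINC00894 than of EOLA2 was not detectable with these libraries. It ranged from -0.53 to -0.24 over the left-out libraries and was -0.07 (exact permutation p = 0.8) with a pseudocount of 1 FPKM.

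**Figure D2:**
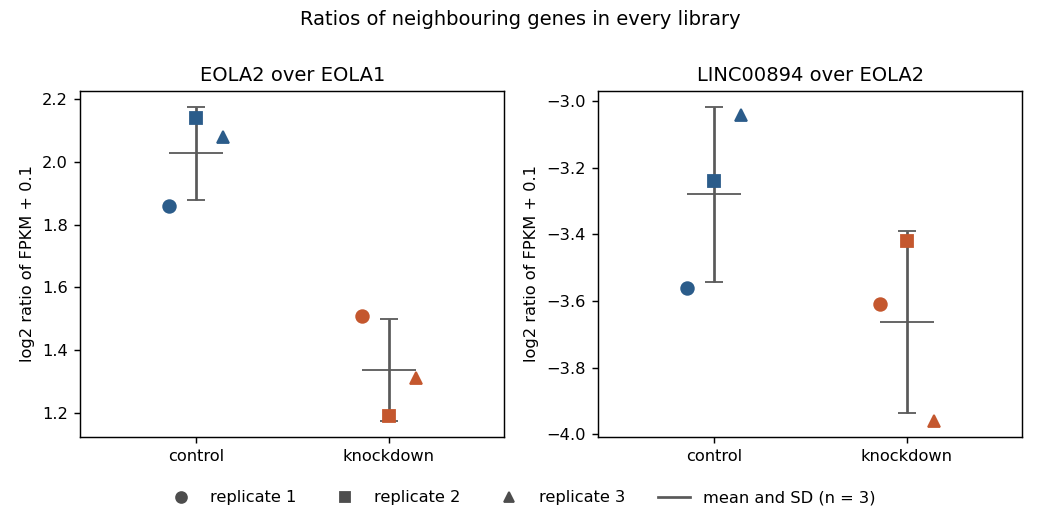
Log2 ratios of FPKM + 0.1 in each library, EOLA2 over EOLA1 on the left and LINC00894 over EOLA2 on the right, with the mean and SD of 3 libraries (the axes do not start at 0). The left panel separates the groups, with knockdown values from 1.19 to 1.51 and control values from 1.86 to 2.14, and the right panel does not.

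LINC00893, the divergent transcript of EOLA1, is no member of the set and was below the filter. It was listed at 0.389, 0.998 and 1.25 FPKM in controls and at 0.291, 0.490 and 0.299 FPKM in knockdowns, from 41, 173 and 194 reads and from 24, 50 and 31 reads. Control 1 lay among the knockdown values, so the groups overlapped. With no filter on low values its log2 fold change was -0.99 (SE 0.44, limma adjusted p = 0.271), and 29.2% of its 50-base words also occur in LINC00894.

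IDS removes sulfate groups from heparan and dermatan sulfate in the lysosome. It lies 417.5 kb from LINC00894 towards the centromere (149476990 to 149521096, minus strand) and was measured at 1.73, 2.74 and 2.70 FPKM in controls and at 0.963, 1.10 and 1.31 FPKM in knockdowns. All knockdown libraries lay below control 1, which itself lay well below controls 2 and 3. IDS stood at 47.1% of its control mean, a log2 fold change of -1.0 (SE 0.22, limma adjusted p = 0.0499). That call sat at the threshold and ended with median-of-ratios scaling (adjusted p = 0.0527). Control 1 was 0.62 log2 units below controls 2 and 3, and the knockdown libraries were 0.59 below control 1. Of its 50-base words 20.7% occur in other genes, 15.3% in the overlapping gene ENSG00000241489.

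**Figure D3:**
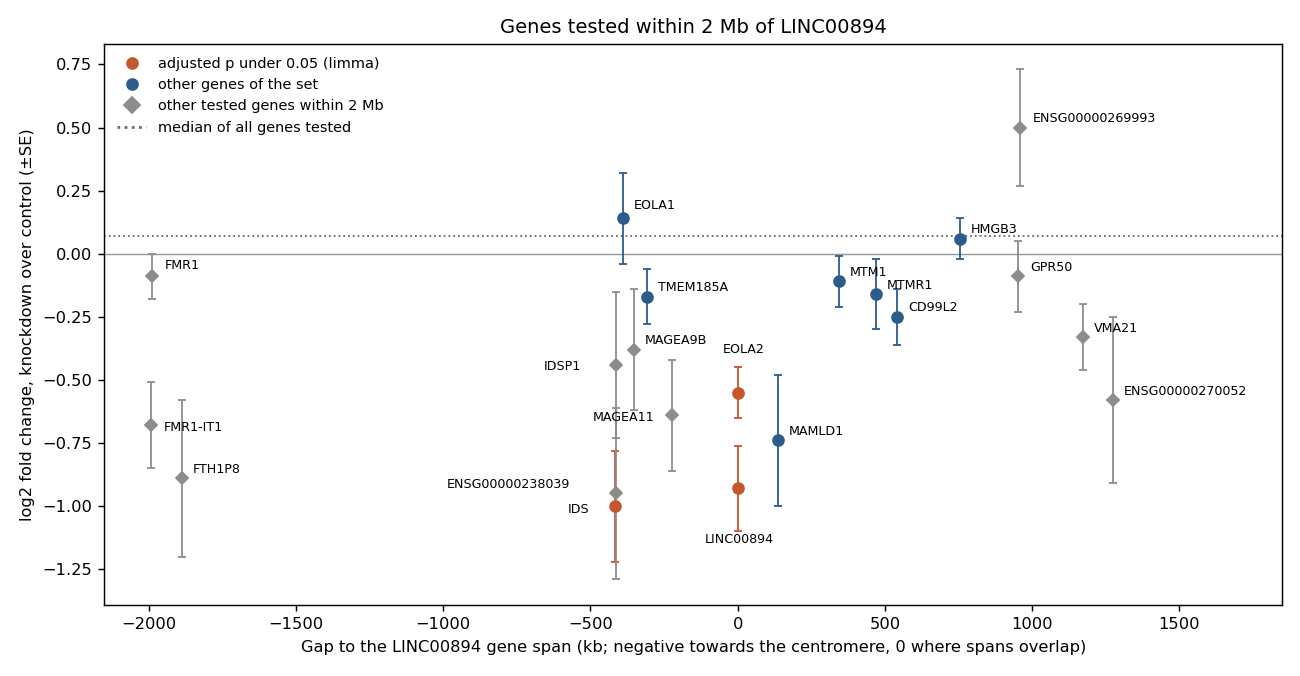
Log2 fold change of knockdown over control with its SE (n = 3 against 3) for the 21 genes tested within 2 Mb, against the gap in kb between each gene and LINC00894. LINC00894, EOLA2 and IDS passed the test (orange), and 18 of 21 points lie below 0, against 42.4% of all genes tested.

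TMEM185A, which encodes a membrane protein beside a folate-sensitive fragile site, lies between EOLA1 and LINC00894, 306.7 kb from the latter (149596556 to 149631912, minus strand). It was measured at 2.66, 2.56 and 2.59 FPKM in controls and at 2.07, 2.51 and 2.34 FPKM in knockdowns. The groups did not overlap, but knockdown 2 lay just under the lowest control, and the log2 fold change of -0.17 (SE 0.11) had a limma adjusted p of 0.33.

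MAMLD1 is the nearest gene of the set on the telomeric side, 136.8 kb from the end of LINC00894 (150361422 to 150514178, plus strand). It encodes a mastermind-like domain protein and is mutated in some boys with hypospadias. Its level was 1.59, 2.91 and 2.97 FPKM in controls and 1.23, 1.62 and 1.38 FPKM in knockdowns. Control 1 lay just below knockdown 2, so the groups overlapped, while controls 2 and 3 were far above all knockdown libraries. The log2 fold change was -0.74 (SE 0.26, limma adjusted p = 0.111) and became -1.02 (adjusted p = 0.00321) without control 1, which was 0.84 log2 units below the other controls.

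MTM1 and MTMR1 are neighbouring phosphatases that remove the phosphate at position 3 of phosphoinositides on endosomes. They lie 344.0 kb (150568619 to 150673322) and 468.4 kb (150692971 to 150765103) from LINC00894 towards the telomere, both on the plus strand. MTM1 was measured at 4.01, 3.65 and 4.18 FPKM in controls and at 3.33, 3.67 and 3.95 FPKM in knockdowns, with a log2 fold change of -0.11 (SE 0.10, limma adjusted p = 0.491). Its groups overlapped, knockdown 2 lying level with control 2. MTMR1 was measured at 7.23, 9.71 and 10.2 FPKM in controls and at 8.06, 8.34 and 7.69 FPKM in knockdowns, with a log2 fold change of -0.16 (SE 0.14, limma adjusted p = 0.459). Control 1 was the lowest of the 6 MTMR1 values, and without that library the log2 fold change was -0.31 (adjusted p = 0.011).

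CD99L2 encodes a cell-surface glycoprotein that takes part in leukocyte passage through vessel walls in mice, and lies 541.8 kb from LINC00894 (150766337 to 150898816, minus strand). It was measured at 6.48, 7.53 and 8.29 FPKM in controls and at 5.71, 6.27 and 6.66 FPKM in knockdowns. Knockdown 3 lay above control 1, so the groups overlapped, and the log2 fold change of -0.25 (SE 0.11) had a limma adjusted p of 0.182. Without control 1 it was -0.34 (adjusted p = 0.024).

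HMGB3, an HMG-box chromatin protein, lies farthest from LINC00894 in the set, at 755.9 kb (150980509 to 150990775, plus strand). It was measured at 23.2, 23.9 and 25.1 FPKM in controls and at 26.8, 25.6 and 23.0 FPKM in knockdowns. The highest and the lowest value both came from knockdown libraries. Its log2 fold change of 0.06 (SE 0.08, limma adjusted p = 0.62) turned to -0.06 with median-of-ratios scaling, which moved the median of all genes from 0.07 to -0.05.

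The number of genes that passed depended on the libraries used. With control 1 left out, 6 of the 10 fell by limma, the 3 above and MAMLD1, MTMR1 and CD99L2. In that fit 15.7% of all genes fell and 43.6% passed in either direction. With any other library left out, limma called 0 genes in the whole table, although 3676 to 4530 genes had an unadjusted p under 0.05. The LINC00894 log2 fold change ranged from -1.06 to -0.79 over these 6 fits. Against control 1 alone, the mean log2 difference of the knockdown libraries was -0.83 for LINC00894, -0.73 for EOLA2 and -0.59 for IDS. It was -0.18 for MAMLD1 and -0.06 for CD99L2, while for MTMR1 it was 0.15, the knockdown libraries lying above control 1.

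On all 6 libraries, limma-voom called the same 3 genes of the set, where 4.5% of all genes fell, 12.4% rose and 16.9% passed. With a pseudocount of 1 FPKM the 3 genes also fell (7.7% of all genes passed), and with median-of-ratios scaling LINC00894 and EOLA2 were (2.67% fell, 4.49% passed). When every gene with a read was tested, limma called 0 genes of the set, 4 having an unadjusted p under 0.05, and 0.105% of all genes. Limma-voom without control 1, chosen after seeing the data, called 7 genes of the set and 50.7% of all genes.

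**Figure D4:**
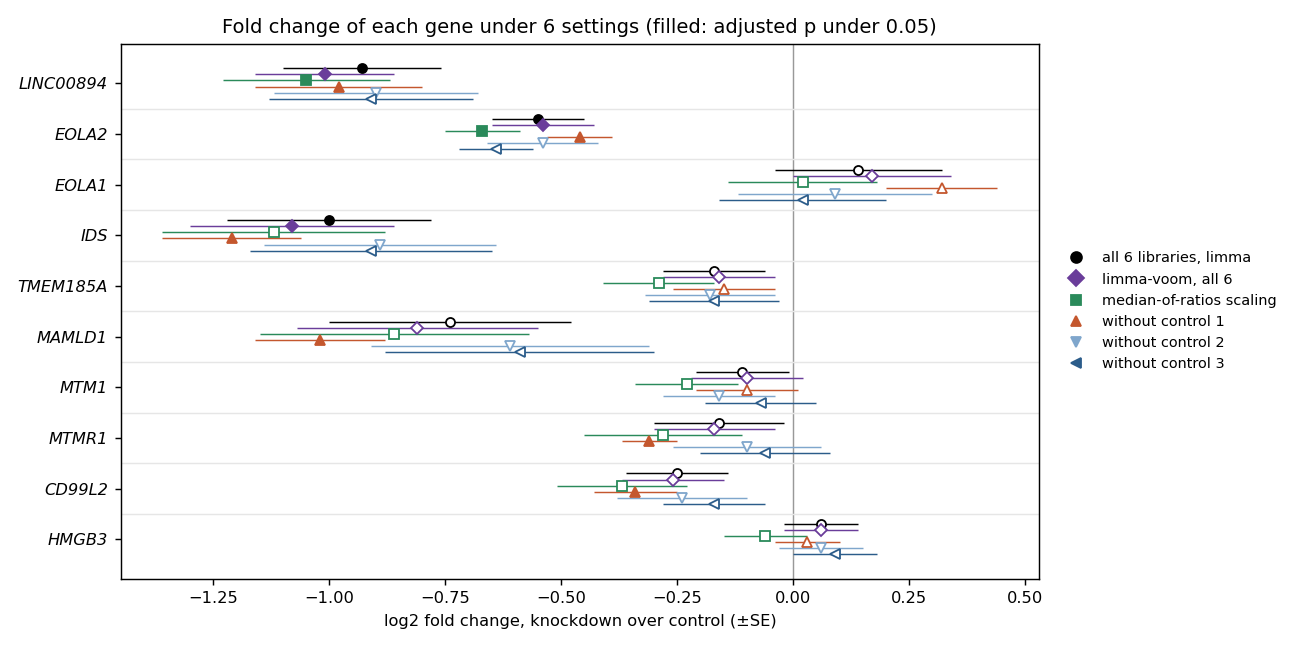
Log2 fold change of knockdown over control with its SE for the 10 genes under 6 settings (limma on all libraries, limma-voom, median-of-ratios scaling, and limma without each control in turn), with filled symbols for an adjusted p under 0.05. LINC00894, EOLA2 and IDS lie below 0 throughout, MAMLD1 moves from -0.74 to -1.02 without control 1, and EOLA1 lies above 0 in these 6 settings.

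The genes around the set gave the wider frame. Of 52 genes with values within 2 Mb of LINC00894, 21 were tested, and on all 6 libraries the only ones that passed were the 3 of the set. All 3 fell. A log2 fold change below 0 was found for 18 of the 21, or 85.7%, against 42.4% of all genes tested and 56.1% of chromosome X. The 21 are not all separate. The span of ENSG00000238039 overlaps those of IDS and IDSP1, EOLA2 overlaps LINC00894, and FMR1-IT1 lies within FMR1. The median of the 21 was -0.38, against -0.07 over 631 tested genes of chromosome X, of which 28 fell and 22 rose. The 11 tested genes that are not in the set had a median of -0.44, and on all 6 libraries 0 of them passed by limma or by limma-voom. The groups did not overlap, with knockdown lower, for 9 of the 21, or 42.9%, against 14.3% of all genes tested and 20.9% of chromosome X. Control 1 was nearer to the knockdown libraries for 14 of the 21, or 66.7%, against 60.8% of all genes. Among the 11 outside the set it was nearer for 9, or 81.8%. Against control 1 alone, the median log2 difference of the knockdown libraries was -0.18 for the 21 and -0.15 for those 11. Over all genes tested it was 0.02. Without control 1, limma called 12 of the 21 lower and 1 higher, and 6 lower and 1 higher among the 11 outside the set, in a fit where 15.7% of all genes fell and 43.6% passed.

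The nearest tested gene outside the set towards the centromere was MAGEA11, a melanoma antigen family member, 221.4 kb away. Its controls were at 5.60, 10.5 and 9.22 FPKM and its knockdown libraries at 5.44, 5.02 and 5.13 FPKM. Control 1 was close to the knockdown values and the other controls were well above them. Its log2 fold change was -0.64 (limma adjusted p = 0.111), and without control 1 it was -0.91 (adjusted p = 0.00107). Towards the telomere it was GPR50, a relative of the melatonin receptors, 952.1 kb away, with a log2 fold change of -0.09 (limma adjusted p = 0.71), which was -0.25 (adjusted p = 0.0182) without control 1.

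Genes that work with the members of the set were examined by family. In the myotubularin family, 15 of 15 genes were tested and 0 passed by limma, with a median log2 fold change of 0.21. MTMR11 had -0.38 (limma adjusted p = 0.0536), MTMR10 had 0.53 (0.0625) and MTMR12 had 0.28 (0.076). An unadjusted p under 0.05 was found for 6 of these 15 genes, against 6050 of all 18548 tested. Limma-voom called 1 lower and 2 higher, in a fit where 4.5% of all genes fell, 12.4% rose and 16.9% passed in either direction. Of 7 genes that make or convert phosphatidylinositol 3-phosphate, 0 passed by limma, and limma-voom called 2 higher, where 12.4% of all genes rose. PIK3C3, the kinase that makes this lipid on endosomes, had a log2 fold change of 0.78 (limma adjusted p = 0.0611) and the scaffold VAC14 had 0.46 (0.0593).

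Among genes of lysosomal glycosaminoglycan breakdown, 15 of 16 were tested, of which IDS fell and 2 rose, against 2.06% and 4.14% of all genes. Limma-voom called 2 lower and 2 higher, against 4.5% and 12.4%. GALNS, the sulfatase of keratan sulfate, rose by 0.70 on the log2 scale (SE 0.13, limma adjusted p = 0.041), from 1.31 FPKM ± 0.0957 to 2.19 ± 0.195 (SD, n = 3). SUMF1, which activates all sulfatases including IDS, rose by 0.64 (SE 0.14, limma adjusted p = 0.0489), from 1.04 ± 0.0601 to 1.67 ± 0.0674. The median of the 15 was -0.05. SGSH, a heparan sulfate sulfatase, had a log2 fold change of -0.51 (limma adjusted p = 0.0671).

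In the other families no gene outside the set passed by limma on all 6 libraries. Of the mastermind-like and NOTCH genes, 8 of 8 were tested and 0 passed by limma. RBPJ, the DNA-binding partner of NOTCH, had a log2 fold change of -0.45 (limma adjusted p = 0.0532) and was the 1 gene of this list that limma-voom called lower (adjusted p = 0.026). HMGB1 had 0.04 and HMGB2 -0.16, CD99 had 0.03, and TMEM185B, the relative of TMEM185A, had 0.02. TRIP4, a further gene with an ASCH domain, had 0.25 (limma adjusted p = 0.0949). Without control 1, where limma called 43.6% of all genes, it called 2 lower and 7 higher of the 15 myotubularin genes, 0 lower and 3 higher of the 7 lipid genes, 4 lower and 2 higher of the 15 lysosomal genes and 3 lower and 1 higher of the 8 mastermind-like and NOTCH genes.

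Genes whose pattern over the 6 libraries was most like that of LINC00894 lay elsewhere. Likeness was the root mean square difference of centred log2(FPKM + 0.1) values, ranked over 15798 tested genes with a name, with a median of 0.558. GPR63 was nearest at 0.0998, followed by ARHGAP8 at 0.134, RNF213-AS1 at 0.14, LINC00106 at 0.149 and MIR186 at 0.158. Within the set MAMLD1 ranked 420, EOLA2 442, IDS 503 and EOLA1 9387.

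ATF3, named in the study's title, crosses these results only as a reference. Its controls were at 239, 352 and 415 FPKM and its knockdown libraries at 163, 155 and 167 FPKM, with no overlap and a log2 fold change of -1.01 (SE 0.20, limma adjusted p = 0.0415), and its control 1 was 0.68 log2 units below the other controls.

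The authors' deposited table gives its own comparison, from a test that is not named. Lower values with an adjusted p under 0.05 are given there for 4 genes of the set, against 4.22% of all genes in the authors' deposited table. The authors' deposited table lists log2 fold changes of -1.11 for LINC00894 (adjusted p = 1.17e-06), -1.22 for IDS (6.33e-06), -0.68 for EOLA2 (1.22e-05) and -0.96 for MAMLD1 (0.00384). For EOLA1 the authors' deposited table lists 0.02 (adjusted p = 0.978) and for LINC00893 -1.43 (0.0227). The authors' deposited shorter list holds 1867 genes, 4.66% of the table, and includes LINC00894 and IDS from the set.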

How the data were processed

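TRIzol-extracted RNA was, per the labels' protocols, selected with oligo-dT beads, fragmented and copied with random primers, with no step that keeps strand. The submitters' processing notes list HISAT2. The read counter, the genome build, the test and the version of the aligner were each not given in the sources used here. Values deposited by the authors were FPKM per library, judged from the values, and, per the file headers, a mean read signal per group, a log2 fold change and a p-value with its adjusted value.

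Whole reads were recovered from the deposited FPKM, and 100% of values above 0 came out whole within 0.1 read. The 18548 genes at 0.5 FPKM or more in at least 3 of 6 libraries were tested by limma 3.58.1 under R 4.3.3, using log2(FPKM + 0.1) and a mean-variance trend, a scale that understates the change of low genes. Group was the only term, p-values were two-sided, Benjamini-Hochberg adjustment ran over all genes tested and the threshold was 0.05. Ratios of 2 genes were compared with exact permutation tests. The script was tested on simulated data. Alternatives were no filter, a pseudocount of 1 FPKM, median-of-ratios scaling, limma-voom on the recovered reads, the replicate number as a block and each library left out in turn. A limma-voom fit without control 1 was added after seeing the data.

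GENCODE 29, which held 96.3% of the gene IDs, gave coordinates, overlaps and shared words of 50 bases. RefSeq gave start-site windows, aligned with Biopython 1.88. The rule for named genes took every member, LINC00893, ATF3, genes within 2 Mb past the test, the nearest tested other gene on each side, up to 3 genes of each family by p, and the 5 named genes most like LINC00894. Other family members are named where a count needs them, chosen after their values were seen. The members, lists and rules were chosen with earlier results of these data known. Single values of some marker genes are not reported here. Python 3.11.15 and pandas 2.3.3 were used.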

Additional observations from a re-analysis of the deposited data

How the results depend on the processing

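The direction of all 10 genes was kept under every alternative run, except that HMGB3 turned to -0.06 with median-of-ratios scaling. LINC00894 stayed at -0.93 with no filter (limma adjusted p = 0.0734) and with the replicate block (0.0613), and ranged from -1.06 to -0.79 over the left-out libraries. Against 1150 genes and 3 of the set in the report, limma called 42 genes and 0 of the set with no filter, where 8020 had an unadjusted p under 0.05. Limma-voom called 3130 genes. Leaving out 1 library gave 0 to 8093 genes and 0 to 6 of the set, the highest without control 1. Limma-voom without control 1, chosen after seeing the data, called 9413 genes and 7 of the set, EOLA1 then being higher. The replicate block gave 0 genes and 0 of the set by limma (5990 genes at an unadjusted p under 0.05). Deviations of libraries that share a replicate number correlated at 0.15, 0.08 and 0.04. Control 1 correlated best with knockdown 1 and control 2 with knockdown 2, but control 3 with knockdown 2 (0.1). Correlations this small over 3 libraries per group cannot decide whether libraries of the same number were handled together. A pseudocount of 1 FPKM kept the calls of LINC00894, EOLA2 and IDS. Both ratios stayed below 0, that of LINC00894 to EOLA2 shrinking from -0.39 to -0.07 with a pseudocount of 1 FPKM, which is close to the level of LINC00894 in the knockdown libraries. LINC00894 rested on 225 to 970 reads per library, and 3 against 3 libraries cannot give an exact p below 0.1.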
